A study of Mus musculus with 18 samples.

Results

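The calls described here are DNA changes, called against an unmatched normal sample, that were each listed in a single leukemia at an appreciable share of its reads. They were chosen by measured values: the call carried no database mark, reached an allele fraction of 0.10 and 20 reads of depth, and its exact site and bases were listed for 1 leukemia. This gave 290 of 2653 calls. Of the 2653 calls, 1968 carried no database mark, 805 of these reached the fraction, 745 of these reached the depth, and 455 of these were then set aside as listed in several leukemias. The allele fraction is the caller's estimate of the share of reads with the changed base. Allele fraction, depth and privacy chose the calls, so their own levels are given as descriptions. The tests compare the tissues, which the choice did not use. Some of these tests compare allele fractions, and they cover only fractions from 0.10 up, cut off alike in both tissues.

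Whole-exome sequencing was carried out on 17 leukemias of mice that carried both the NP23 and the NHD13 transgene on the strain background C57Bl6-NIH. NP23 encodes a fusion of the nucleoporin NUP98 with PHF23, and NHD13 a fusion of NUP98 with HOXD13. All 17 leukemias carry the disease label Thymic AML, but 11 of the samples are labelled thymus and 6 bone marrow, and each leukemia is a separate mouse. The tail of 1 wild-type C57Bl6-NIH mouse was the normal sample for every call, so no leukemia was compared with other tissue of the same mouse. The labels give no age and no share of leukemic cells in a sample, and DNA calls cannot check the tissue named in the label. Mouse numbers come with the ending NN (5 thymus and 4 bone marrow leukemias) or without it (6 thymus and 2 bone marrow leukemias, called the plain series here).

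Fusions of NUP98 join part of a nuclear pore protein to a chromatin-binding or DNA-binding partner and keep genes of the HOX cluster active in blood progenitors. Such fusions are known to need further mutations before acute leukemia develops, and mutations in kinase signalling genes and chromatin regulators are common partners in myeloid leukemia. A change carried on 1 of a pair of gene copies in every cell of a sample is expected in about as many reads as the unchanged base. A lower share is expected of a change carried by some of the cells. In the mouse lines of these names, both fusions are expressed from regulatory sequence of Vav1, a gene active in blood cells.

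The 7 insertions and deletions shown next are those that the results on named genes turn on, with the 1 in an antibody gene. Each is written from the base before the change, in lower case, followed by the inserted or deleted bases in capitals, on the reference strand of mm10 as the deposited table gives it. In Cbl (chromosome 9, position 44164238, exon 8 of 16) 29 bases were deleted in M61. In Lrba (chromosome 3, position 86776167, exon 55 of 57) 8 bases were deleted in M22, and in Tom1l1 (chromosome 11, position 90656365, exon 11 of 16) 10 bases were deleted in M20. In Nck2 (chromosome 1, position 43554531, exon 4 of 5) 20 bases were inserted in M59. In Nsd1 (chromosome 13) M54 had insertions of 53 bases at position 55301844 and 43 bases at position 55307044, annotated as a splice donor and a splice region change. At position 113429128 of chromosome 12, M56 had an insertion of 27 bases inside Ighj3, a joining segment of the antibody heavy chain locus.
Cbl, deleted in M61: cAGTATAATTCATATTGTTCCTTTGGTGAA
Lrba, deleted in M22: cACCGTGGA
Tom1l1, deleted in M20: tATATCTTCTG
Nck2, inserted in M59: cAATGAGCGGGGCGTCGAGGG
Nsd1, first insertion in M54: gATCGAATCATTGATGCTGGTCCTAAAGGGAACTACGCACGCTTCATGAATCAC
Nsd1, second insertion in M54: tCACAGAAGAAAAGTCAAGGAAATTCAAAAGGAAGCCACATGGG
Ighj3, inserted in M56: cAGTTAGCACTGTGGTGCTCCGCTTAGT

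Of the 290 calls, 258 were in thymus leukemias and 32 in bone marrow leukemias. A single thymus leukemia, M31, held 172 of them, so results are given with and without M31. Outside M31 there were 118 calls, 86 in 10 thymus leukemias and 32 in 6 bone marrow leukemias. In all, 232 calls were single-base changes and 58 were insertions or deletions. Depth at the calls lay between 20 and 687 reads (median 53), and the wild-type tail had 9 to 2329 reads at these sites (median 34). An alternative read was also present in the wild-type tail at 11 of the 290 calls. At most 4 alternative reads supported 33 calls, 29 of them outside M31. The median depth at sites listed in at least 10 leukemias was 71.7 ± 26.8 reads in thymus (SD, n = 11) and 74 ± 27.4 in bone marrow (SD, n = 6; exact two-sided permutation p = 0.872).

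The working name of these calls is clonal, but many had low fractions. Outside M31, 52 of 118 calls had an allele fraction under 0.20, and 34 had 0.40 or more. At the edge of the choice, 4 calls lay at a fraction of 0.1, the lowest kept, and 13 lay under 0.11, while 10 calls were left out between 0.09 and 0.10, the nearest at 0.098. The depth minimum alone removed 32 calls with 6 to 19 reads, 26 from thymus and 6 from bone marrow, and 3 kept calls had exactly 20 reads. The calls are named high-fraction private calls below.

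Thymus and bone marrow leukemias were first compared in the number of high-fraction private calls, which asks whether the leukemias from one tissue carry more such changes than those from the other. Thymus leukemias had from 5 calls (M56) to 172 (M31), with a median of 9. Bone marrow leukemias had from 1 call (M57) to 8 (M58 and M59), with a median of 6. The ranges overlapped, and 6 of the 11 thymus leukemias (M19, M20, M21, M31, M54 and M55) had more calls than any bone marrow leukemia. Thymus averaged 23.5 ± 49.3 calls (SD, n = 11) against 5.33 ± 2.81 in bone marrow (SD, n = 6), and the difference of 18.1 calls lay within the spread between leukemias (p = 0.368, exact two-sided permutation test over 12376 assignments; adjusted p = 0.621 over 6 measures).

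On ranks, a choice added after the data were seen, the tissues differed at an unadjusted p of 0.0439 with M31 kept (exact permutation test; adjusted p = 0.219), and of 0.0737 with labels exchanged within the mouse number series. The thymus mean rested on M31. Without M31 the thymus mean was 8.6 ± 2.76 (SD, n = 10), which is 3.27 calls above bone marrow (p = 0.0431, exact two-sided permutation test; adjusted p = 0.222 over 6 measures). The unadjusted p lay on either side of 0.05 under other choices, and its adjusted value passed under none of them. Without M31 it was 0.034 at a minimum fraction of 0.20 and 0.0246 with fractions from read counts, but 0.135 at 40 reads of depth and 0.0649 with calls within 10 bases as 1 location (exact permutation tests). It was 0.0718 when labels were exchanged only within the mouse number series, and without M31 and 1 further leukemia it ran from 0.023 to 0.138 (exact permutation tests), under 0.05 in 6 of 16. It was highest without M57, the leukemia with 1 call. In the NN series thymus averaged 7.6 ± 2.7 calls (SD, n = 5) against 5 ± 3.56 in bone marrow (SD, n = 4; exact permutation p = 0.294). In the plain series the averages were 36.7 and 6 (exact permutation p = 0.286), or 9.6 and 6 without M31 (exact permutation p = 0.143).

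**Figure D1:**
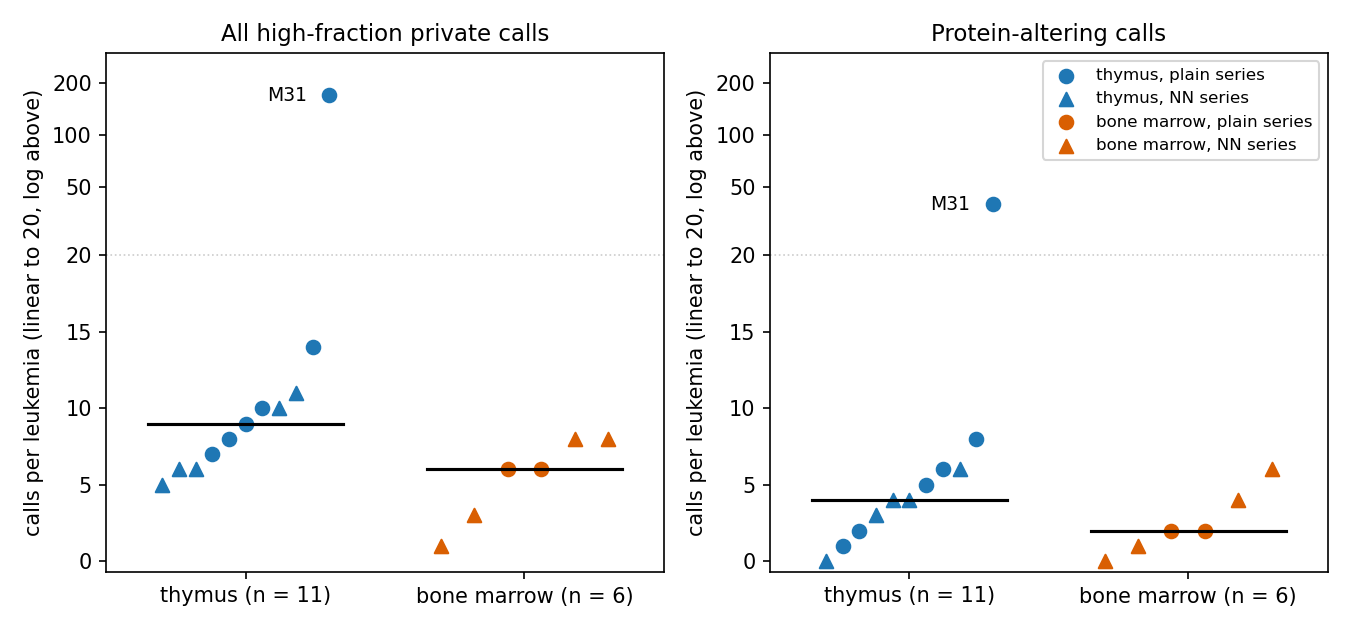
High-fraction private calls per leukemia (left) and those that alter a protein (right), 1 point per leukemia, bars at the medians; the vertical axis is linear to 20 and logarithmic above. M31 stands at 172 and 40 calls, the other 10 thymus leukemias lie between 5 and 14 calls, and the 6 bone marrow leukemias between 1 and 8.

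Privacy was judged by exact site and bases, so a call of another leukemia could lie close by. Only in Vav1 were the bases of such calls compared. Within 10 bases, 8 calls in 4 genes (Vav1, Nsd1, Bmp7 and 5330417C22Rik) had another call in a different leukemia. All 8 were in thymus leukemias, and 6 of them were insertions or deletions. Without these 8 calls and without M31, the means were 7.8 ± 3.12 (SD, n = 10) in thymus and 5.33 ± 2.81 (SD, n = 6) in bone marrow (p = 0.148, exact two-sided permutation test). In Vav1, which encodes a guanine nucleotide exchange factor of blood cells, the calls were 5′ UTR insertions on chromosome 17. M18 had 64 inserted bases at position 57279190 in 14 of 44 reads, and M22 had 8 bases at the same position in 11 of 41 reads and 68 bases at position 57279192 in 10 of 40 reads. The 8 bases of M22 were the start of the M18 insertion, and the first 54 bases of the longer M22 insertion were found inside it. A call of the thymus leukemia M21 also lay within 10 bases of these insertions. The calls of other leukemias near them had fractions up to 0.5. The Nsd1 insertions of M54 lay within 10 bases of calls in M59 for the first and in M53, M55 and M58 for the second.

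Protein-altering calls numbered 94, of which M31 held 40. Thymus leukemias had from 0 (M56) to 40 (M31) with a median of 4, and bone marrow leukemias from 0 (M57) to 6 (M58) with a median of 2. The ranges overlapped, with 7.18 ± 11.1 in thymus (SD, n = 11) against 2.5 ± 2.17 in bone marrow (SD, n = 6; exact two-sided permutation p = 0.414, adjusted p = 0.621). Without M31 the means were 3.9 and 2.5 (exact permutation p = 0.292). As a share of calls in leukemias with at least 3 calls, protein-altering changes made up 42.7 ± 28.5% in thymus (SD, n = 11) against 45 ± 18.3% in bone marrow (SD, n = 5; exact permutation p = 0.871). The thymus shares covered the whole range, from 0% in M56, where none of 5 calls altered a protein, to 100% in M61, where all 6 did. M57 has 1 call and was left out of the shares per leukemia, except where the minimum was set to 1 call. Pooled shares include it.

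Truncating calls are frameshift, stop gained or essential splice site changes. Outside M31, 11 of 86 thymus calls (12.8%, 95% Clopper-Pearson interval 6.56% to 21.7%) and 1 of 32 bone marrow calls (3.12%, interval 0.0791% to 16.2%) were truncating. Intervals here and below cover counting error only. By leukemia, M21 had 3, M19, M20 and M61 had 2 each, and M22, M31 and M54 had 1 each, while M59 had the 1 truncating call of bone marrow. The M54 call is the first Nsd1 insertion shown above, counted by its splice donor annotation, with a call of M59 close by. Thymus averaged 1.09 ± 1.04 truncating calls (SD, n = 11) against 0.167 ± 0.408 in bone marrow (SD, n = 6), a difference that did not pass (p = 0.0684, exact two-sided permutation test; p = 0.124 without M31). Missense and in-frame calls made up 28 of 86 thymus calls outside M31 and 14 of 32 bone marrow calls. Synonymous calls made up 9 of 86 and 4 of 32. The count of truncating calls was examined after the data were seen, as 1 of 7 such measures (adjusted p = 0.16 over the 7).

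**Figure D2:**
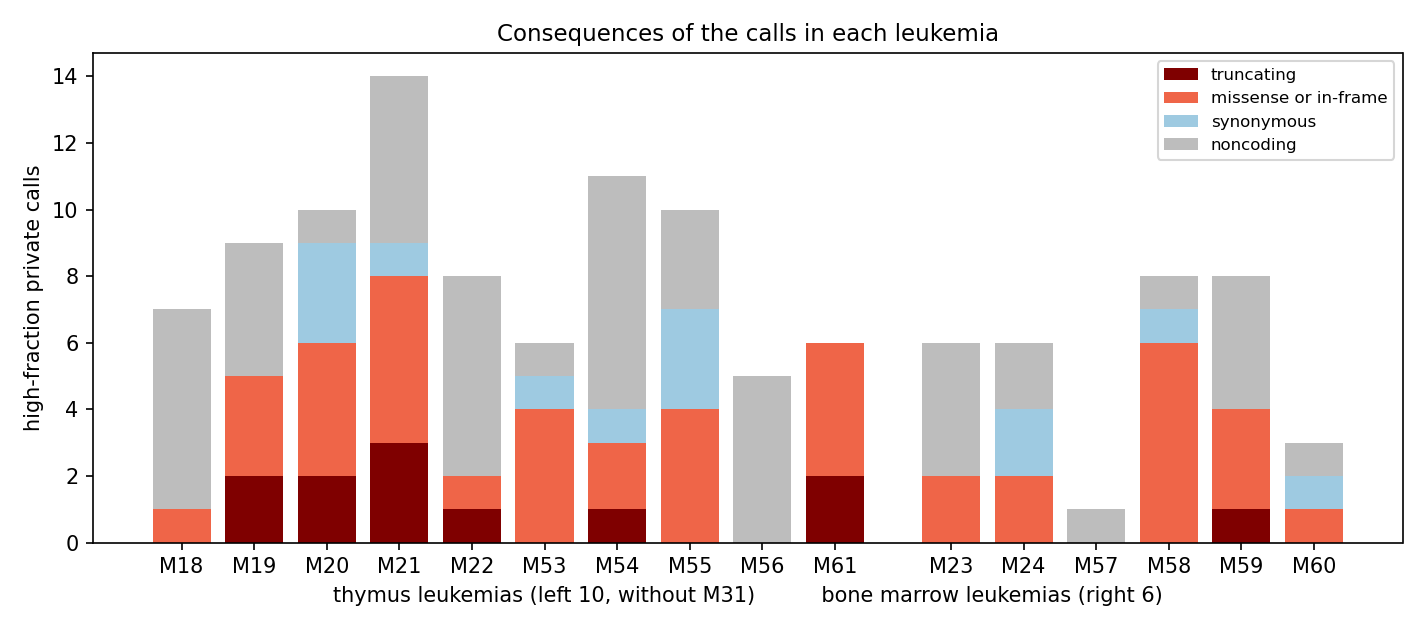
Number of high-fraction private calls in each leukemia outside M31, stacked by consequence (truncating, missense or in-frame, synonymous, noncoding). Truncating calls appear in 6 of the 10 thymus leukemias and in 1 of the 6 bone marrow leukemias, M56 and M57 have no protein-altering call, and M61 has only protein-altering calls.

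The genes were compared next. Cbl was the only gene with high-fraction private protein-altering calls in 2 leukemias, 1 of 11 from thymus and 1 of 6 from bone marrow, so only this gene could be tested (Fisher exact p = 1, two-sided). It did not pass, so 0 of 1 gene tested was called, a background share of 0%. For a gene called in only 2 leukemias, no split between the tissues can reach a Fisher exact p under 0.05. The test therefore could not have called a gene here, and no conclusion on genes is drawn from it. With calls of every consequence counted, Nsd1 (M54 and M57, Fisher exact p = 1) and Vav1 (M18 and M22, 2 of 11 thymus and 0 of 6 bone marrow, Fisher exact p = 0.515, adjusted p = 1) also reached 2 leukemias. No other gene had high-fraction private calls in more than 1 leukemia. Close to the Vav1 calls lay another of M21, which was not itself a high-fraction private call.

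Protein-altering calls were then counted in 12 lists of 251 leukemia genes. The lists were chosen with earlier results of these data known, so the counts are descriptions and no set test was run. Among RAS pathway and receptor tyrosine kinase genes 4 protein-altering calls were found, 3 in the bone marrow leukemia M59 and 1 in the thymus leukemia M61. In all genes M59 had 4 protein-altering calls and M61 had 6. Cbl encodes a ubiquitin ligase that marks activated receptor tyrosine kinases for degradation. In M59, 53 of 125 reads (42.4%, interval 33.6% to 51.6%) had the change R557K in exon 11 of 16 (chromosome 9, position 44158779). In M61 the Cbl deletion shown above was present in 9 of 79 reads (11.4%, interval 5.34% to 20.5%). It is annotated as E364fs and also as a splice acceptor and intron change, and its effect on the protein was not tested. The intervals of the 2 Cbl calls did not overlap. Gab1, a docking protein that links receptors to SHP2 and PI3 kinase, had D685G in M59 (chromosome 8, position 80766453, exon 11 of 11) in 44 of 125 reads (35.2%, interval 26.9% to 44.2%). Nck2, an adaptor of SH2 and SH3 domains, had the 20-base insertion shown above, D307fs, in 9 of 46 M59 reads (19.6%, interval 9.36% to 33.9%). The Nck2 insertion was marked by the caller as lying in a tandem repeat, and 1 of its alternative reads came from one read orientation and 8 from the other.

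In the chromatin regulator list 4 protein-altering calls were found, all in thymus leukemias (4 of 11 thymus and 0 of 6 bone marrow). Of all 94 protein-altering calls, 79 were in thymus. For 0 of 6 leukemias the upper 95% Clopper-Pearson bound is 45.9%, so 6 leukemias are too few to separate the tissues here. In M19 Brpf1, a scaffold of histone acetyltransferase complexes, had E827K (chromosome 6, position 113319226, exon 8 of 13) in 38 of 80 reads (47.5%, interval 36.2% to 59%). In M21 Kmt2b, a histone H3 lysine 4 methyltransferase, had R1308C (chromosome 7, position 30581114, exon 14 of 37) in 5 of 30 reads (16.7%, interval 5.64% to 34.7%). In M31 Kmt2a, its paralog and the gene of MLL fusions in human leukemia, had T1311I (chromosome 9, position 44842610, exon 7 of 36) in 6 of 22 reads (27.3%, interval 10.7% to 50.2%). Nsd1 encodes a histone H3 lysine 36 methyltransferase. Its 53-base insertion in M54 was present in 17 of 110 reads (15.5%, interval 9.27% to 23.6%). The 43-base insertion was present in 12 of 97 reads (12.4%, interval 6.56% to 20.6%). Within 10 bases of the first lay a call of the bone marrow leukemia M59, at a fraction of 0.063. Near the second lay calls of M53, M55 and the bone marrow leukemia M58, at fractions up to 0.608. The first is counted as protein-altering by its splice donor annotation, and its effect on the protein was not tested. The only high-fraction private call of the bone marrow leukemia M57 also lay in Nsd1, a splice region C>A change at position 55295983 in 29 of 105 reads (27.6%, interval 19.3% to 37.2%), which is not counted as protein-altering. The other 10 lists, among them JAK-STAT, hematopoietic transcription factors, NOTCH, cohesin and RNA splicing, held 0 protein-altering calls. Over all lists, 5 of 11 thymus and 1 of 6 bone marrow leukemias had a protein-altering call in a listed gene. In any gene, every leukemia but M56 (thymus) and M57 (bone marrow) had such a call. Thymus held 79 of the 94 protein-altering calls, and M31, among the 5, held 40 of them. Whether the list counts differ between the tissues was not tested.

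Outside the lists, the thymus leukemias carried high-fraction changes in genes of varied function. M19 had Q450R in the signalling gene Syde2 in 66 of 134 reads. In M22 the Lrba frameshift shown above, T2766fs in a vesicle trafficking protein, was present in 29 of 71 reads (40.8%, interval 29.3% to 53.2%). M22 had I45T in the olfactory receptor gene Olfr1153 in 24 of 48 reads. In M61 Tigit, which encodes an inhibitory receptor of T and NK cells, had V132E (chromosome 16, position 43659536, exon 3 of 4) in 23 of 43 reads (53.5%, interval 37.6% to 68.8%). M61 further had L803fs in Wnk4, a kinase that controls ion transport, in 26 of 70 reads, and L267H in Utp3, a ribosome assembly factor, in 32 of 80 reads. Fractions of these named M61 changes were 0.377 or more, against 0.103 for its Cbl deletion.

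In the further thymus leukemias the named changes ranged from a few reads to most reads of a site. M20 had R958C in Pxdn, a peroxidase of the basement membrane, in 14 of 21 reads (66.7%, interval 43% to 85.4%), the highest read share among the named protein-altering calls. Its other named changes were L1050I in Mapkbp1 (26 of 66 reads), a splice donor change in the germ cell gene Dazl (10 of 37 reads) and the Tom1l1 deletion shown above (3 of 21 reads). In M55 the adjacent bases 75142868 and 75142869 of chromosome 11 were both changed in 47 of 106 reads, in a single codon of Smg6, an endonuclease of nonsense-mediated decay (I1215V and I1215K as annotated separately). M54 had R91L in the thioesterase gene Ppt2 (45 of 99 reads) and E49K in Gm5168 (26 of 53 reads). M53 had V474A in Rsc1a1 (28 of 82 reads) and T1476N in the matrix proteoglycan gene Vcan (37 of 132 reads), and M18 had R272H in the transport adaptor gene Hook1 (27 of 121 reads). M21 had D951G in Zswim4 (25 of 72 reads), and its frameshifts in Skint5 (13 of 39 reads), Gja10 (4 of 31 reads) and Caskin2 (3 of 29 reads) were each of 1 base. The frameshift in 4931440F15Rik in M19 rested on 2 of 20 reads.

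In the bone marrow leukemias, too, several named changes rested on few reads. Calls with at most 4 alternative reads were 9 of 32 in bone marrow and 20 of 86 in thymus outside M31. The number of named changes depends on the naming rule and the number of leukemias, so it was not compared. M58 had P538L in Cdh3, which encodes P-cadherin, in 23 of 51 reads (45.1%, interval 31.1% to 59.7%) and S1217R in the dynein gene Dnah7b in 26 of 82 reads. M24 had S166R in Tfb2m, a mitochondrial transcription factor, in 18 of 59 reads, and Q163R in the helicase gene Ddx60 in 3 of 38 reads. M60 had L301P in Olfr1310 in 7 of 23 reads. Both protein-altering calls of M23, F45L in Vmn2r25 and S89G in Nicn1, rested on 3 reads each. All 6 calls of M23 had 3 or 4 alternative reads.

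**Figure D3:**
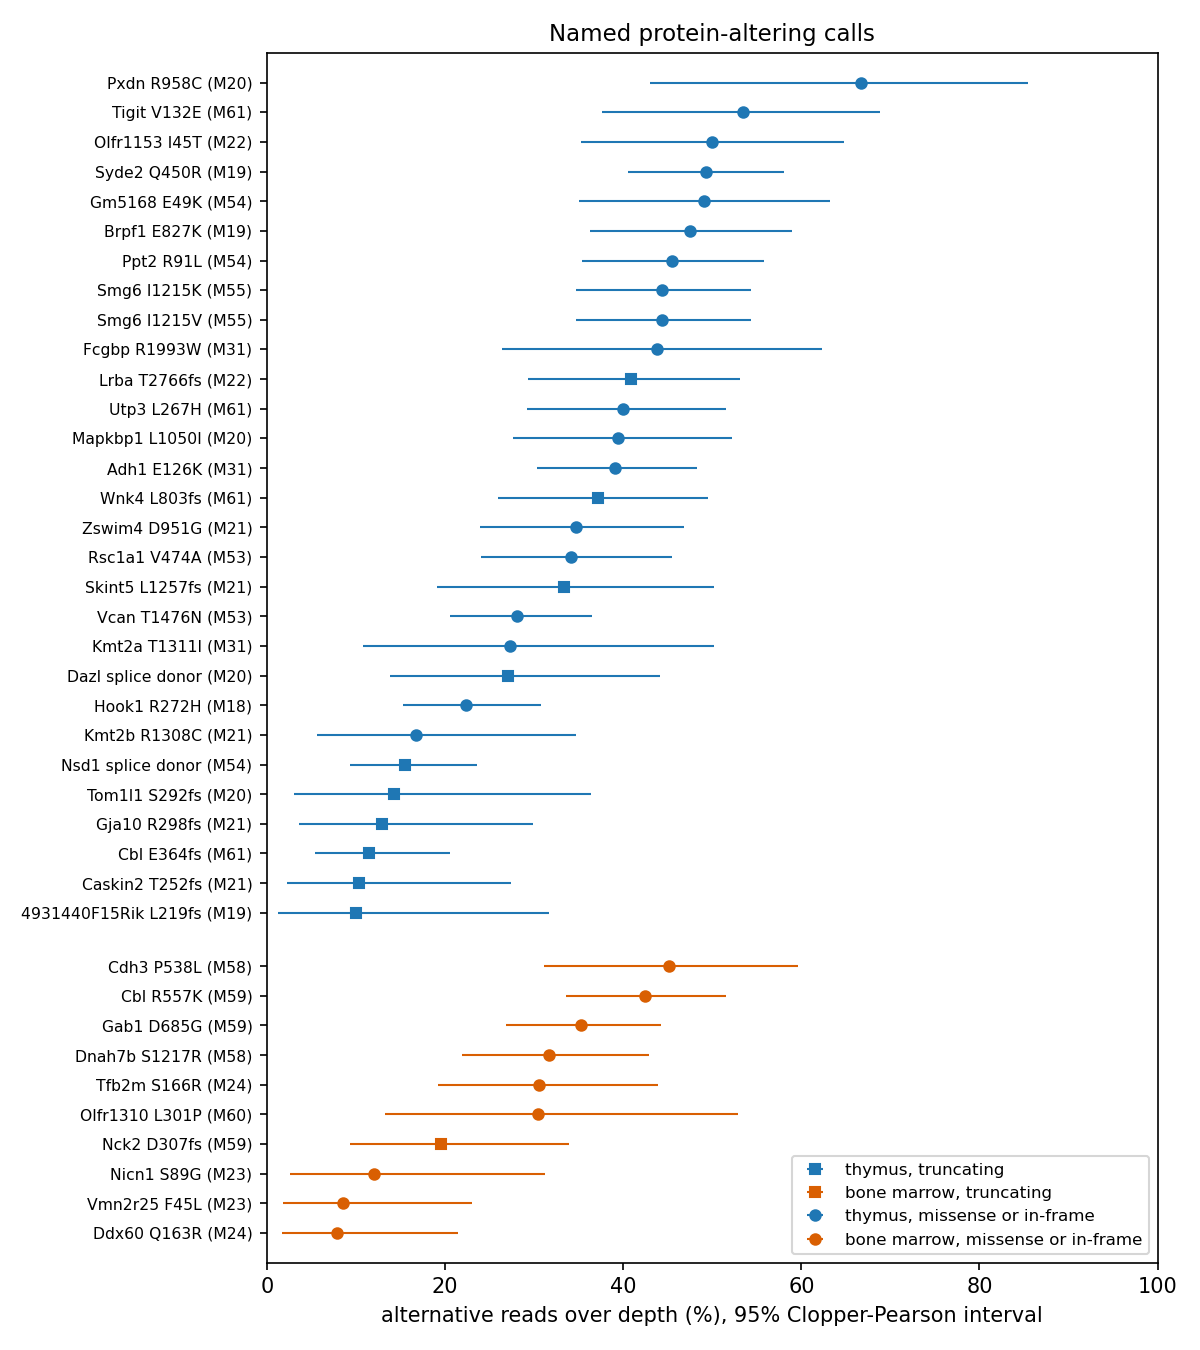
Share of reads with the change (points) and its 95% Clopper-Pearson interval (lines, counting error only) for the named protein-altering calls, thymus above and bone marrow below, squares for truncating and circles for missense or in-frame calls. The shares run from 10% to 66.7% in thymus and from 7.89% to 45.1% in bone marrow, and the intervals of calls at depths near 20 reads are the widest.

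The allele fractions, cut off at 0.10 in both tissues by the choice of calls, were compared as a distribution. Outside M31 the thymus calls ran from 0.1 to 0.667 with quartiles of 0.133, 0.254 and 0.455, and the bone marrow calls from 0.1 to 0.826 with quartiles of 0.117, 0.222 and 0.307. The lower quartiles were close, and the upper quartiles lay apart. The median fraction per leukemia ran from 0.133 (M19) to 0.478 (M56) in thymus. Thymus averaged 0.3 ± 0.121 (SD, n = 11) against 0.233 ± 0.0862 in bone marrow (SD, n = 5; exact two-sided permutation p = 0.28, adjusted p = 0.621). The share of calls at 0.25 or more was 56.2 ± 17.9% in thymus (SD, n = 11) against 49.2 ± 31% in bone marrow (SD, n = 5; exact permutation p = 0.578). Neither measure separated the tissues beyond the spread between leukemias.

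Calls at fractions of 0.40 or more were then counted, a measure chosen after the distributions were seen. Every thymus leukemia had at least 1 such call, with 18 in M31, 7 in M54, 5 in M55, 3 in M18, M19 and M56, 2 in M20, M21, M22 and M61, and 1 in M53. In bone marrow M59 had 3 and M58 had 1, while M23, M24, M57 and M60 had 0. The groups overlapped through M58 and M59. Thymus averaged 4.36 ± 4.82 such calls (SD, n = 11) against 0.667 ± 1.21 in bone marrow (SD, n = 6; exact two-sided permutation p = 0.0575). With 1 leukemia other than M31 left out, p ran from 0.0305 (without M53) to 0.109 (exact permutation tests). Without M31 the thymus mean was 3 ± 1.76 (SD, n = 10), 2.33 calls above bone marrow (p = 0.0125, exact permutation test; p = 0.00907 with labels exchanged within the mouse number series). Adjusted over the 7 measures added after the data were seen, the first of these is 0.0874, which does not pass. Without M31 and 1 further leukemia the exact permutation p ran from 0.005 to 0.0333, and within the NN series alone it was 0.127, for 3.6 ± 2.41 calls in thymus (SD, n = 5) against 1 ± 1.41 in bone marrow (SD, n = 4). In pooled calls the share at 0.40 or more was 30 of 86 in thymus outside M31 (34.9%, interval 24.9% to 45.9%) and 4 of 32 in bone marrow (12.5%, interval 3.51% to 29%). At the sites listed in at least 10 leukemias, the mean of the leukemias' median fractions was 0.518 for thymus and 0.502 for bone marrow (exact permutation p = 0.727).

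The high-fraction calls of bone marrow were few enough to name, chosen after their values were seen. In M59 22 of 27 reads had a 1-base insertion in the 3′ UTR of Lpar4 on the X chromosome (fraction 0.826), the highest fraction of all calls. M59 also had 66 of 142 reads with a change upstream of Nmnat1 (fraction 0.475), beside Cbl R557K. M58 carried Cdh3 P538L. In thymus the highest fractions after Pxdn R958C were an intronic change in Gm833 in M55 (0.6, 13 of 21 reads) and an intronic change in Dnah9 in M18 (0.562, 52 of 94 reads).

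**Figure D4:**
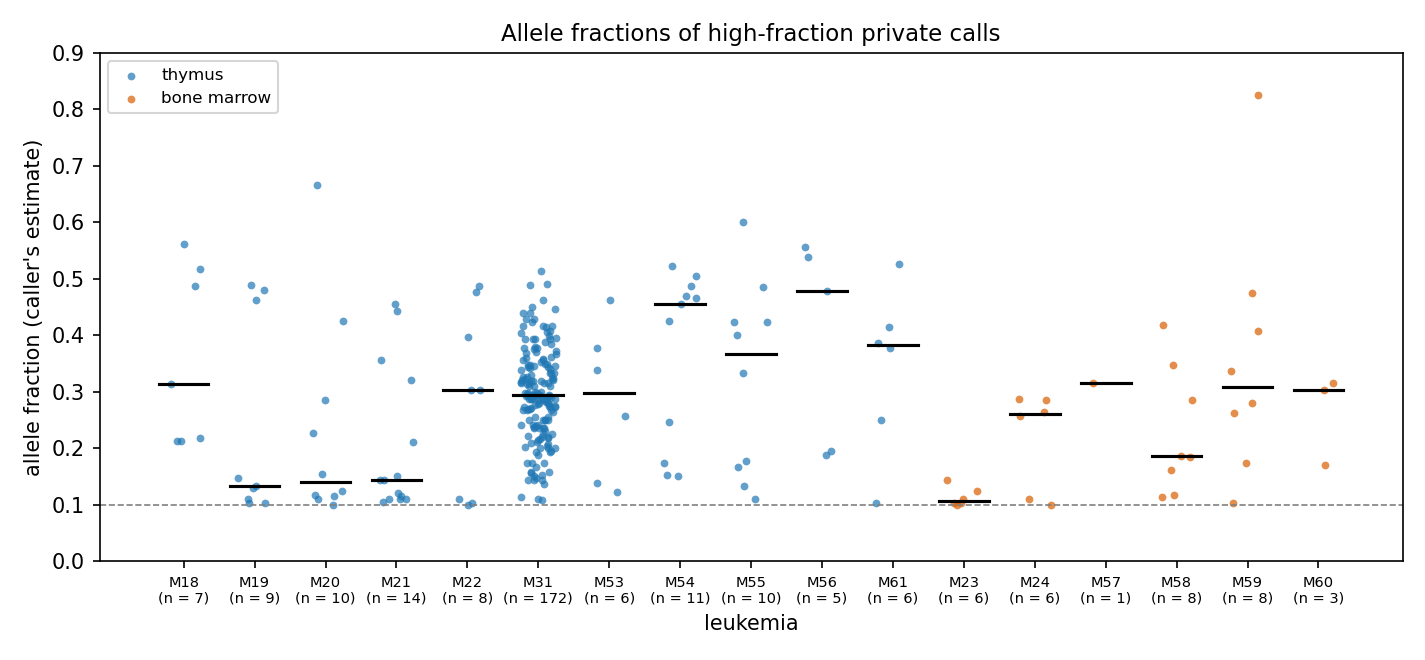
Allele fraction of every high-fraction private call (points) by leukemia, thymus on the left and bone marrow on the right, black bars at the medians and the dashed line at the minimum of 0.10. Thymus leukemias other than M31 spread to fractions of 0.455 to 0.667, M31 has most of its 172 calls between 0.20 and 0.40, and 4 of the 6 bone marrow leukemias have no call at 0.40 or more.

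M31 had a different make-up from the other 16 leukemias. Its fractions ran from 0.108 to 0.514 with a median of 0.294, and 133 of its 172 calls lay between 0.20 and 0.40. M31 also had 607 calls with a database mark, against 1 to 22 in each other leukemia. Of the 172 unmarked calls, 123 lay within 1 Mb of a marked one, 75 of them on chromosome 1 between 93304661 and 165185074 and 39 on chromosome 19 between 20722291 and 58452024. The other 49 lay farther away. M31 had the lowest median fraction at sites listed in at least 10 leukemias (0.334 over 20 sites), while the other leukemias had 0.457 to 0.809. Without the calls near marked ones, thymus averaged 11.7 ± 12.7 calls (SD, n = 11) against 5.17 in bone marrow (exact permutation p = 0.261).

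The near and far calls of M31 differed in composition. Of single-base calls, C>T made up 33 of 98 near marked calls (33.7%) and 31 of 45 far from them (68.9%), and T>C made up 38 of 98 (38.8%) and 2 of 45 (4.44%). Protein-altering calls were 21 of 123 near and 19 of 49 far, and synonymous calls 47 and 13. The named M31 changes over 1 Mb from a marked call were E126K in the alcohol dehydrogenase gene Adh1 (48 of 123 reads) and R1993W in Fcgbp (14 of 32 reads), beside Kmt2a T1311I. No test was made within this 1 leukemia.

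Substitution classes were compared in leukemias with at least 3 single-base calls, each change written from the pyrimidine of the base pair. C>T was the most frequent class in pooled calls of both tissues, 34 of 62 in thymus outside M31 (54.8%, interval 41.7% to 67.5%) and 10 of 27 in bone marrow (37%, interval 19.4% to 57.6%). Its share per leukemia was 51.5 ± 20.4% in thymus (SD, n = 11) against 37.7 ± 17.8% in bone marrow (SD, n = 5; exact two-sided permutation p = 0.213, adjusted p = 0.638 with Benjamini-Hochberg adjustment over 6 classes). C>A averaged 13.8 ± 11.7% and 9.71 ± 13.6% (adjusted p = 0.836, exact permutation test). T>G averaged 2.82 ± 5.21% in thymus and 12.6 ± 19% in bone marrow and had the smallest p of the 6 (p = 0.0984, adjusted p = 0.591, exact permutation test). M58 held 3 of the 4 bone marrow T>G calls, and without M58 the difference went from -9.75 to -2.18 percentage points (exact permutation p = 0.678). T>A averaged 8.5% and 18%, T>C 20.7% and 22%, and C>G 2.72% and 0%. Of the 6 classes 0 passed at an adjusted or an unadjusted p under 0.05, a background share of 0%. With 27 single-base calls in bone marrow, 1 call moves the pooled share by several percentage points.

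**Figure D5:**
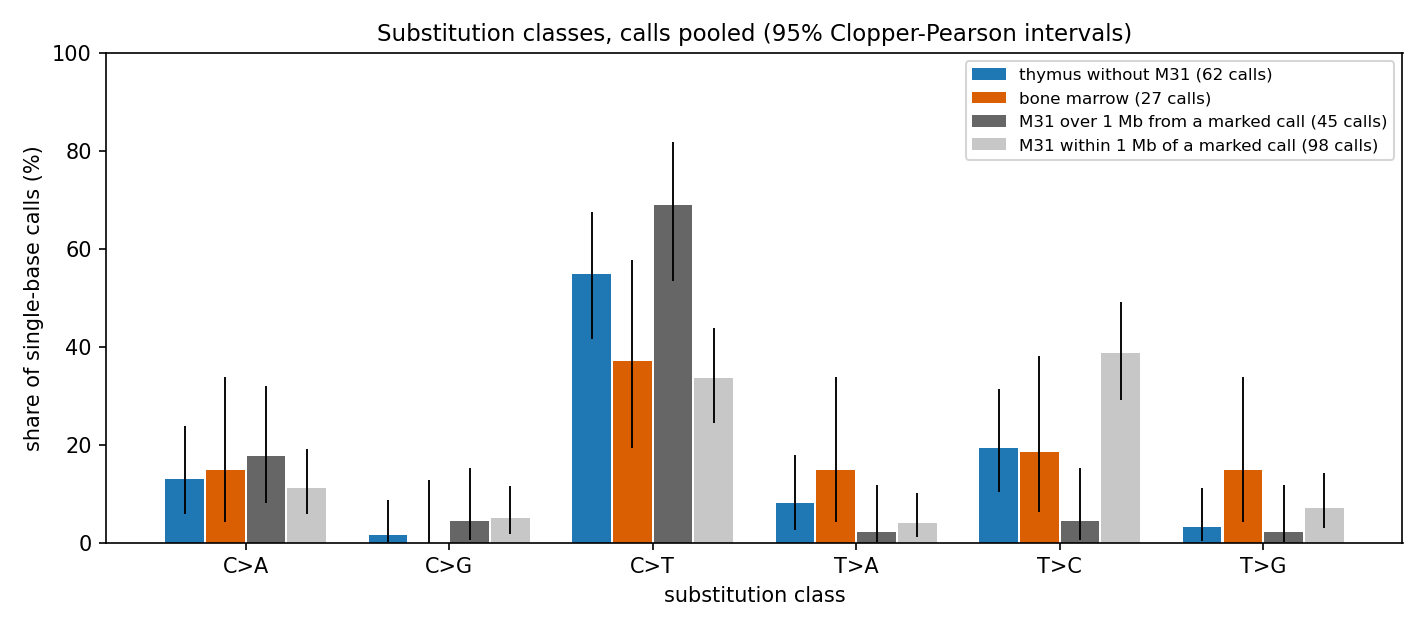
Share of each substitution class among single-base calls, pooled for thymus outside M31, bone marrow, and the M31 calls far from and near database-marked calls, with 95% Clopper-Pearson intervals (counting error only). The intervals of thymus outside M31 and bone marrow overlap in every class, while the near and far calls of M31 lie apart in C>T and T>C.

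Insertions and deletions made up 24 of 86 thymus calls outside M31 (27.9%, interval 18.8% to 38.6%) and 5 of 32 bone marrow calls (15.6%, interval 5.28% to 32.8%). Counts per leukemia ran from 0 (M55) to 29 (M31) in thymus, with 0 to 2 in bone marrow. Their share of calls was 28 ± 15.3% in thymus (SD, n = 11) against 14.2 ± 9.13% in bone marrow (SD, n = 5; exact two-sided permutation p = 0.0856, adjusted p = 0.514). Outside M31, 10 of 24 thymus and 3 of 5 bone marrow insertions or deletions were marked as tandem repeats. In M31, 19 of 29 were. With each leukemia left out in turn, the difference ran from 10.3 percentage points without M60 (exact permutation p = 0.223) to 16.6 without M55, the thymus leukemia with none (exact permutation p = 0.0233), the only 1 of 17 with p under 0.05.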

How the data were processed

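Genomic DNA of 17 leukemias and 1 wild-type tail was captured with an exon kit and sequenced, and each leukemia was compared with the tail by MuTect2, per the labels. Tools listed in the submitters' processing notes are GATK, BWA 0.7.17 and bcl2fastq 2.17.1.14, with builds mm10 and GRCm38, while roles, the GATK version and filters are not given in the sources used here. Read counts and depths per call are whole-number counts as deposited by the authors, and the deposited allele fraction (a fraction from the caller of the authors) set all thresholds. It differs from the share of reads, and 12 of the 290 calls have a share of alternative over reference plus alternative reads under 0.10. Another 25 columns with values per sample were left unused. Rows not analysed here may exist, so a 0 covers these rows only.

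Groups came from the tissue label, with each mouse as 1 replicate. The difference of means between tissues was tested over leukemias by exact two-sided permutation, shares and medians only with at least 3 calls, and genes with the two-sided Fisher exact test. Benjamini-Hochberg adjustment ran over 6 measures and over 6 classes. The tests were checked on simulated data. Python 3.11.15, numpy 2.4.6, scipy 1.17.1 and pandas 2.3.3 were used. Protein-altering means missense, stop or start changes, frameshift, in-frame changes and essential splice sites. Positions are mm10. The Ighj3 and Igkv16-104 spans are from RefSeq on GRCm38.p6, where 225 of 233 gene symbols matched.

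Named genes are those of the lists with a protein-altering call and, outside M31, those with truncating calls, calls in 2 leukemias, 2 protein-altering calls in 1, or the 2 protein-altering calls of highest fraction. In M31 they are list genes and the 2 highest over 1 Mb from a marked call. A call that this rule names is not reported here. Others are said to be chosen after their values were seen. The calls, lists and tests were chosen with earlier results of these data known. Alternatives changed the fraction and depth minimums, the read support, database marks, merged locations, series and each leukemia.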

Additional observations from a re-analysis of the deposited data

Results flagged for a closer look

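Among the plain thymus, NN thymus and bone marrow leukemias, 35 sets of values from 5 or 6 leukemias were searched for a leukemia far from the others, and 7 values were found. The cutoff stands for about 1 in 20 sets by chance only where values spread smoothly. A set in which 1 leukemia alone lies above 0 is always flagged, as for the C>G, T>A and T>G shares below. The number found is therefore not set against a chance rate. In the plain thymus leukemias M31 lay far above the others in its number of high-fraction private calls (172) and of protein-altering ones (40). In the same group M31 stood alone in its share of C>G (4.895%) and of T>A (3.497%), which were 0 in the other 5. These shares of M31 rest on 7 and 5 calls. In the NN thymus leukemias M61 had the highest share of calls at fractions of 0.25 or more (83.33%), and the only C>G share above 0 (25%), from 1 of 4 single-base calls. M54 had the only T>G share above 0 in that group (14.29%), from 1 of 7 single-base calls. The difference between tissues was compared between the plain and the NN series for 12 measures, and 0 differed at an exact permutation p under 0.05.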

How the results depend on the processing

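No paired analysis was possible because the mouse numbers are not shared between the tissues. Under the processing choices listed first, 370 values kept their direction and their side of the threshold, 36 reversed and 4 passed an unadjusted p under 0.05. For those added after the data were seen these were 47, 0 and 9. The cause of these changes was not tested. No gene passed under any alternative that was run, but a gene called in only 2 leukemias could not have passed. All differences are thymus minus bone marrow.

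The difference in number was 3.267 without M31. The choices added later that also passed an unadjusted p under 0.05 gave 5.152 on ranks, and without M31 2.333 at a minimum fraction of 0.20, 3.533 with fractions from read counts, and 3.444, 3.556, 3.667, 3.556, 3.8 and 3.8 without M18, M53, M56, M61, M58 and M59 in turn. The difference in the share of insertions and deletions was 16.19 percentage points with at least 1 call per leukemia.

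Reversed differences, in percentage points, were as follows. At a minimum fraction of 0.05 they were 1.059 (protein-altering), -1.003 (C>T) and 0.791 (T>A). At 0.20 they were -10.69 (share at 0.25 or more), -10.37 (C>T), 9.704 (T>A) and 9.859 (T>C). With fractions from read counts they were 3.244 (protein-altering) and 1.893 (T>C). At 40 reads they were -12.22 (share at 0.25 or more), -14.13 (C>A), -4.93 (C>T), 12.8 (T>A) and 17.51 (T>C). With at least 5 alternative reads they were 3.056 (protein-altering), -5.1 (share at 0.25 or more), -0.6746 (C>A), 1.246 (T>A) and 4.397 (T>C). Within the plain series they were 5.873 (protein-altering) and -0.1004 (C>A), and within the NN series -2.81 (C>T) and 1.333 (T>A). With at least 1 call per leukemia they were 5.153 (protein-altering), -1.47 (share at 0.25 or more), -11.01 (C>A) and 2.363 (T>C), and with at least 5 calls 6.213 (T>C).

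With each leukemia left out in turn, differences ran from 3.267 to 19.97 (number), 1.4 to 5.4 (protein-altering number), -8.082 to 5.153 (protein-altering share), 10.29 to 16.63 (insertions and deletions), 0.0355 to 0.086 (median fraction) and -5.289 to 13.46 (share at 0.25 or more). They ran from 1.612 to 8.755 (C>A), 0.4895 to 2.99 (C>G), 9.372 to 21.04 (C>T), -14 to -4 (T>A), -6.804 to 3.196 (T>C) and -12.9 to -2.183 (T>G). Numbers of calls per leukemia limit every share, since most leukemias have 5 to 14 calls and bone marrow has 32 in all.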

Other observations

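The values given next belong to no comparison and were chosen after they were seen. Antigen receptor loci held high-fraction private calls in thymus leukemias. The Ighj3 insertion of M56 (segment at 113429085 to 113429132 of chromosome 12) was carried by 11 of 58 reads at a fraction of 0.196. In M54 a 1-base deletion at position 68425655 of chromosome 6, inside the light chain segment Igkv16-104 (68425605 to 68426072), was carried by 60 of 121 reads at a fraction of 0.505. In the bone marrow leukemia M58, Dntt, which encodes the terminal transferase that adds bases at rearranging receptor genes, had S417R in 5 of 39 reads. In M56, 135 of 687 reads carried a 1-base insertion on the mitochondrial genome at position 12635, the only high-fraction private call there.

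Private unmarked calls under a fraction of 0.10 averaged 71.5 per leukemia in thymus and 39.7 in bone marrow (p = 0.433, exact two-sided permutation test, n = 11 and 6). The highest fraction per leukemia averaged 0.531 ± 0.0628 in thymus, where it ran from 0.455 to 0.667, and 0.384 ± 0.234 in bone marrow, where it ran from 0.143 (M23) to 0.826 (M59). The exact two-sided permutation p was 0.065, or 0.0391 with labels exchanged within the mouse number series (adjusted over 7 measures, 0.16 and 0.244). Without M59 the difference went from 0.146 to 0.235, with no overlap between the tissues. The exact permutation p was then 0.000229, the smallest that 4368 assignments can give. Its adjusted value of 0.0016 covers the 7 measures but not the choice of M59. As M59 held the only bone marrow value above the thymus minimum, leaving it out was bound to part the tissues. Without M31 and 1 further leukemia, the exact permutation p was under 0.05 in 1 of 16, namely without M59. More calls also give more chances of a high value, and M57 had 1 call and M60 had 3. Within the plain series the difference was 0.314 (exact permutation p = 0.0357, the smallest that 28 assignments allow), and within the NN series 0.0642 (exact permutation p = 0.595). Among single-base calls outside M31 with at least 4 alternative reads of known orientation, 1 of 12 C>A, 4 of 39 C>T and 1 of 6 T>G calls had all of them in one orientation.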
